A study of Mus musculus with 3 samples.

Results

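The sirtuins are the 7 genes Sirt1 to Sirt7, taken by gene symbol from the annotated probes of the arrays. All 7 had a named probe, 10 probes in all, among 9678 genes with a named probe. They were measured in OS25 cells, a line of mouse embryonic stem (ES) cells grown with serum, leukaemia inhibitory factor and hygromycin. The labels give 1 group, undifferentiated ES cells of this single line, with 3 biological replicates and 1 array each, so the data have no treatment, genotype or time to compare. The series concerns the acetylation of H4K16, the histone H4 lysine that several sirtuins deacetylate.

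Sirtuins remove acetyl and other acyl groups from lysines and consume NAD+ in doing so, which ties their activity to the cell's metabolic state. SIRT1, SIRT6 and SIRT7 are mainly nuclear, SIRT2 is mainly cytosolic, and SIRT3, SIRT4 and SIRT5 are mitochondrial. In ES cells, SIRT1 is known as a deacetylase of p53, and SIRT6 as a histone deacetylase that restrains Tet-dependent oxidation of DNA methylation.

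The starts of the sirtuin genes differ in their sequence, and 3 stretches are shown: Sirt1 for its composition, and Sirt2 and Sirt3 for a neighbouring start. Neighbours were sought on the opposite strand within 500 bases and only among genes with a named probe. Other neighbours, also of the remaining sirtuins, may thus be missed. They come from RefSeq on GRCm38.p6 and are written 5′ to 3′ on the strand of the named gene. Capitals mark the motifs searched on both strands, with overlapping matches counted: GC boxes (GGGCGG or CCGCCC), E-boxes (CACGTG) and the ETS core (CGGAAG or CTTCCG). The Sirt1 stretch is the 250 bases before its transcript start, chr10:63339036-63339285, minus strand.
Sirt1: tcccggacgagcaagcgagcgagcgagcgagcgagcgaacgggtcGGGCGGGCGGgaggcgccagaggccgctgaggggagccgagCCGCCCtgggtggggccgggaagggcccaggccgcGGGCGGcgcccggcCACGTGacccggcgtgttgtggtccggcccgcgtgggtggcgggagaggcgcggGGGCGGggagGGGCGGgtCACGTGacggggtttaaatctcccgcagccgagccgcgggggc
The Sirt2 stretch is the 107 bases between its start and that of Nfkbib, which runs the other way, chr7:28766645-28766751, plus strand.
Sirt2: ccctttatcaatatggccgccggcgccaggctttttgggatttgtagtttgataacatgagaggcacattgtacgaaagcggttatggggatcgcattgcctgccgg
The Sirt3 stretch is the 84 bases between its start and that of Psmd13, which also runs the other way, chr7:140882310-140882393, minus strand.
Sirt3: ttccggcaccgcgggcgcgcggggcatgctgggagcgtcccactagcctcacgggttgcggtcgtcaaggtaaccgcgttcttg

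The Sirt1 stretch held 39 CpG dinucleotides, 6 GC boxes and 2 E-boxes, with 79.2% G and C. The windows of the same length before the other sirtuin starts, 8 in all for 6 genes, held 12 to 21 CpG dinucleotides, at most 3 GC boxes and no E-box. The ETS core was found in the first window of Sirt3 (2 matches), Sirt6 (2 matches) and Sirt7 (1 match). Among the 32851 windows of all genes, 32.7% held a GC box, 6.02% an E-box and 13.6% an ETS core. The median was 16 CpG dinucleotides in the first window of genes with a named probe. These matches describe the letters before each start. Neither stretch between opposed starts holds any of the 3 motifs.

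A probe was called detected on an array when its deposited detection p, which by Illumina's convention sets it against the negative controls of that array, was under 0.01. The lowest intensity called detected was 99.2, 96.6 and 92.6 on replicates 1, 2 and 3. Over all genes with a named probe, 82.1% were detected on all 3 arrays by the probe with the highest mean, and 82.2% by any probe. Names were given only to the 17754 probes that the authors kept in their processed table, which raises that share: on no array was any of the 27527 other probes detected. Of the sirtuins, 6 of 7 were detected on all 3 arrays, a share near that background. The remaining gene, Sirt6, was not detected on every array with any of its 3 probes.

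The label was set against markers of ES cells and of other cells. Of 15 ES cell markers, 4 were detected (Klf2, Klf4, Klf5 and Tbx3, which other cells transcribe too), 2 were not detected on all 3 arrays (Zfp42 and Tfcp2l1) and 9 had no named probe, including Pou5f1, Nanog, Sox2 and Esrrb. Of 11 fibroblast markers 6 were detected, of 6 endoderm markers 3, and of 5 neural markers 2. Among markers with a named probe, these were 4 of 6 for ES cells, 6 of 8 for fibroblasts, 3 of 4 for endoderm and 2 of 2 for neural cells. The share of all named genes was 82.2%, and the lists are too short to be told apart from it. Mean log2 levels of detected markers ran from 7.47 (Klf4) to 9.40 (Klf5) for ES cells and from 6.68 (Pdgfrb) to 11.90 (Col1a1) for fibroblasts. They ran from 10.11 (Gata6) to 11.68 (Col4a1) for endoderm and were 8.95 (Nes) and 7.78 (Map2) for neural cells. Among markers not detected on all 3 arrays, Zfp42 and Tfcp2l1 stood at 5.30 and 4.74, and Col3a1 and Gata4 at 5.50 and 5.16. A gene with no named probe may be at background, lack a probe, or have only a probe without a gene symbol. Its absence can be read neither for nor against the label. The defining ES cell markers thus do not bear out the label here, and the values below are those of arrays labelled undifferentiated ES cells. The summed level of all named markers, on a linear scale and on replicates 1, 2 and 3, was 1077, 1709 and 1595 for ES cells and 10355, 6058 and 5135 for fibroblasts. It was 656, 858 and 743 for the neural and 6204, 5745 and 5173 for the endoderm markers. Sums of different lists cannot be read against each other, because probes differ in brightness. The detected ES cell markers did not move together: Klf4 and Klf5 were lowest on replicate 1, while Tbx3 was highest there. Zfp42 and Tfcp2l1 were also highest there, but near background and not detected on all 3 arrays. Klf2 was highest on replicate 3. Replicate 1 stood apart: Dcn, the fibroblast proteoglycan gene decorin, was at a log2 level of 12.28 there against 6.77 and 5.42, while Thy1 was at 6.81 against 9.85 and 9.49. Over the fibroblast markers detected on all 3 arrays, which leaves out Dcn, the sum was 5334, 5900 and 5055, and replicate 1 was not the highest. By gene, 4 of these 6 were highest on replicate 1 (Col1a2, Pdgfrb, Twist1 and Prrx1), as was the undetected Col3a1. Col1a1 and Thy1 were highest on replicate 2. Ranges over the arrays are therefore also given without replicate 1.

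**Figure D1:**
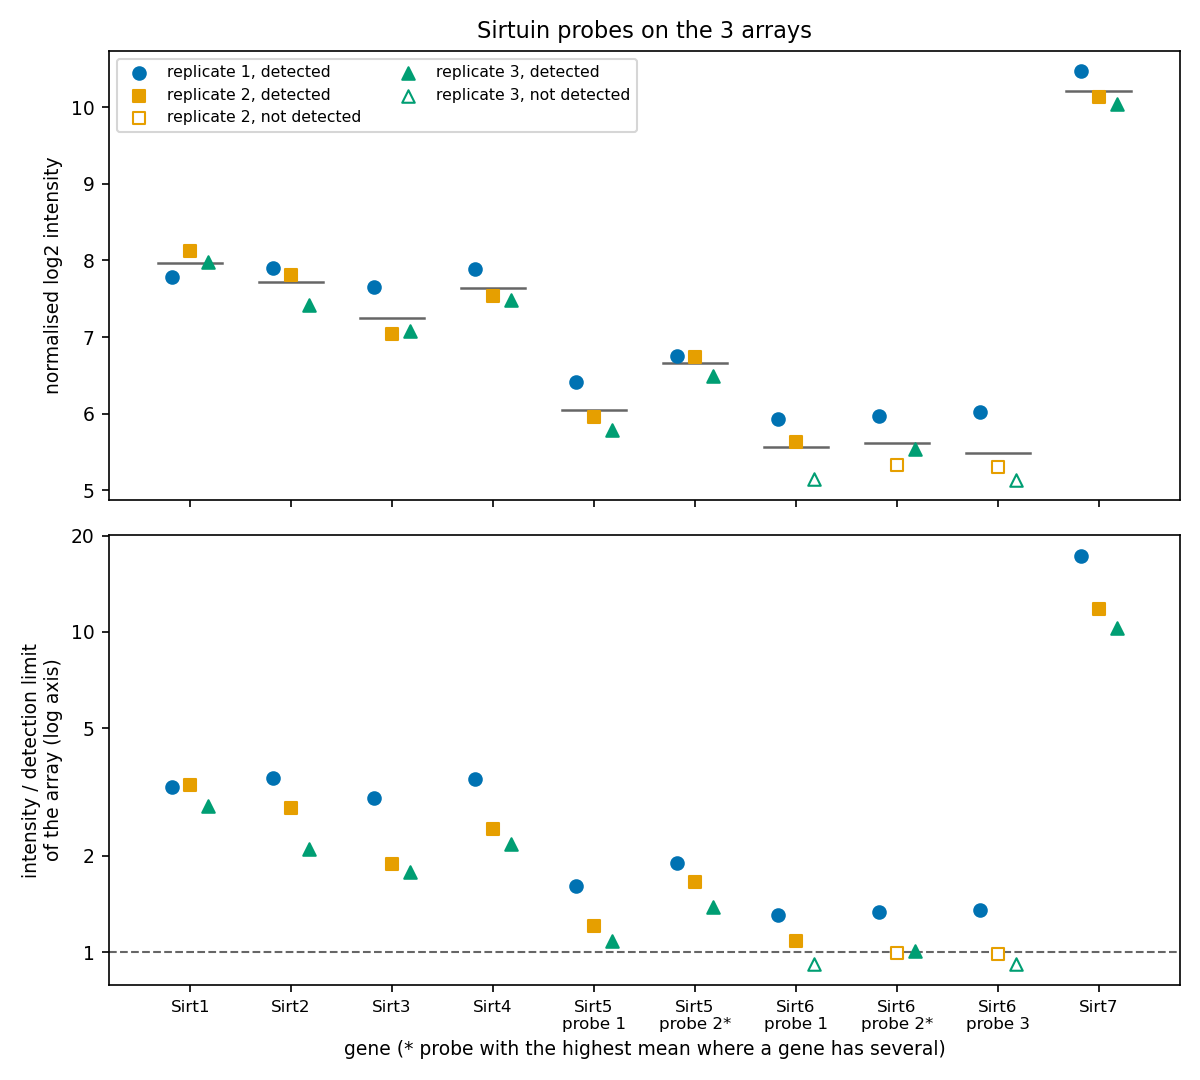
The upper panel plots the normalised log2 intensity of each of the 10 sirtuin probes on the 3 arrays, with a line at the probe's mean; the lower panel plots the unprocessed intensity over the detection limit of the array on a log axis. Filled symbols are arrays on which the probe was detected and open symbols those on which it was not; Sirt6 has the open symbols, at 0.915 to 0.995 of the limit, and levels of different genes cannot be read against each other because probes differ in brightness.

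Among the nuclear sirtuins, Sirt1 and Sirt7 were detected on all 3 arrays. Sirt1 encodes a deacetylase of H4K16, p53 and many transcription factors. Its probe (ILMN_2643159) stood at a normalised log2 intensity of 7.79 on replicate 1, 8.12 on replicate 2 and 7.98 on replicate 3, with a mean of 7.96 ± 0.16 (SD, n = 3). Replicate 1 was the lowest array for Sirt1, and its detection p was 0, the lowest value of that scale, on every array. Its unprocessed intensity was 3.28, 3.33 and 2.85 times the detection limit on replicates 1, 2 and 3.

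Sirt7 encodes a nucleolar deacetylase linked to transcription of ribosomal RNA genes and to deacetylation of histone H3. Its probe (ILMN_1253970) stood at 10.47, 10.14 and 10.04 on replicates 1, 2 and 3 (mean 10.22 ± 0.22, SD, n = 3). Its intensity was 17.3, 11.8 and 10.3 times the detection limit on those arrays, a margin that depends on the probe as well as on the transcript. Replicate 1 was the high array.

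Sirt6 encodes a chromatin deacetylase and ADP-ribosyltransferase of telomeres, DNA repair and glycolytic genes. Each of its probes was detected on replicate 1 with a detection p of 0 and lost on at least 1 other array. ILMN_2671176 had a detection p of 0.00321 on replicate 2 and 0.0395 on replicate 3. ILMN_2684909, the probe with the highest mean, had 0.0107 on replicate 2 and 0.00641 on replicate 3. ILMN_2684910 had 0.0107 and 0.0395 on those arrays and was thus detected on replicate 1 alone.

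The 3 Sirt6 probes sat at the limit of the assay. ILMN_2684909 stood at log2 levels of 5.98, 5.33 and 5.54 on replicates 1, 2 and 3, and its intensity was 1.33, 0.995 and 1.01 times the detection limit. ILMN_2671176 reached 1.31 times the limit on replicate 1 and 0.918 times on replicate 3. ILMN_2684910 reached 1.36 times the limit on replicate 1 and 0.915 times on replicate 3. Sirt6 RNA near this limit cannot be told from a dim probe, and the data do not show that the gene was silent. At a detection p under 0.05, or without replicate 2, Sirt6 counted as detected and the count was 7 of 7.

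Sirt2 encodes the mainly cytosolic member, a deacetylase of tubulin that also acts on H4K16 when it enters the nucleus around mitosis. Its probe (ILMN_2676181) stood at 7.91 on replicate 1, 7.82 on replicate 2 and 7.42 on replicate 3 (mean 7.71 ± 0.26, SD, n = 3). Replicates 1 and 2 lay 0.09 log2 units apart, and replicate 3 was the low array. The intensity was 3.49, 2.82 and 2.11 times the detection limit.

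The mitochondrial members were all detected on every array. Sirt3, the main deacetylase of the mitochondrial matrix, stood at 7.65 on replicate 1, 7.03 on replicate 2 and 7.07 on replicate 3 (probe ILMN_2737480, mean 7.25 ± 0.34, SD, n = 3). Replicate 1 was the high array, and the others differed by 0.04 log2 units. Sirt4, which acts on glutamate dehydrogenase and on lipid use, was also highest on replicate 1. It stood at 7.89, 7.53 and 7.49 (probe ILMN_1259494, mean 7.64 ± 0.22, SD, n = 3), and replicates 2 and 3 again differed by 0.04.

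Sirt5 encodes the enzyme that removes succinyl, malonyl and glutaryl groups. Its brighter probe (ILMN_2711045) stood at 6.75, 6.74 and 6.49 on replicates 1, 2 and 3 (mean 6.66 ± 0.15, SD, n = 3). The other probe (ILMN_2707079) stood at 6.42, 5.95 and 5.79, and its detection p was 0, 0 and 0.00321. Both probes were detected on all 3 arrays and both were highest on replicate 1 and lowest on replicate 3, but their ranges over the arrays were 0.27 and 0.63 log2 units. Without replicate 3 the brighter probe differed by 0.01 log2 units between the remaining arrays.

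With 1 group, the variation open to description is that between biological replicates. The range, the highest minus the lowest array in log2 units, lay between 0.27 (Sirt5) and 0.62 (Sirt3) for the 6 detected sirtuins, with a median of 0.42. These ranges are of the probe with the highest mean, and the other Sirt5 probe had a range of 0.63. The median over all 7950 detected genes was 0.41. None of the 6 sirtuins spanned over 2-fold (1 log2 unit), which 10.1% of detected genes did. Without replicate 1 none of the 6 did either, but the share of detected genes was then 0.453%. Without normalisation between arrays 2 of 6 did, Sirt2 at 1.03 and Sirt3 at 1.12, when 18.1% of detected genes did. The median range there was 0.92 for the 6 sirtuins and 0.59 for all detected genes, so the closeness of both medians holds for the normalised values.

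**Figure D2:**
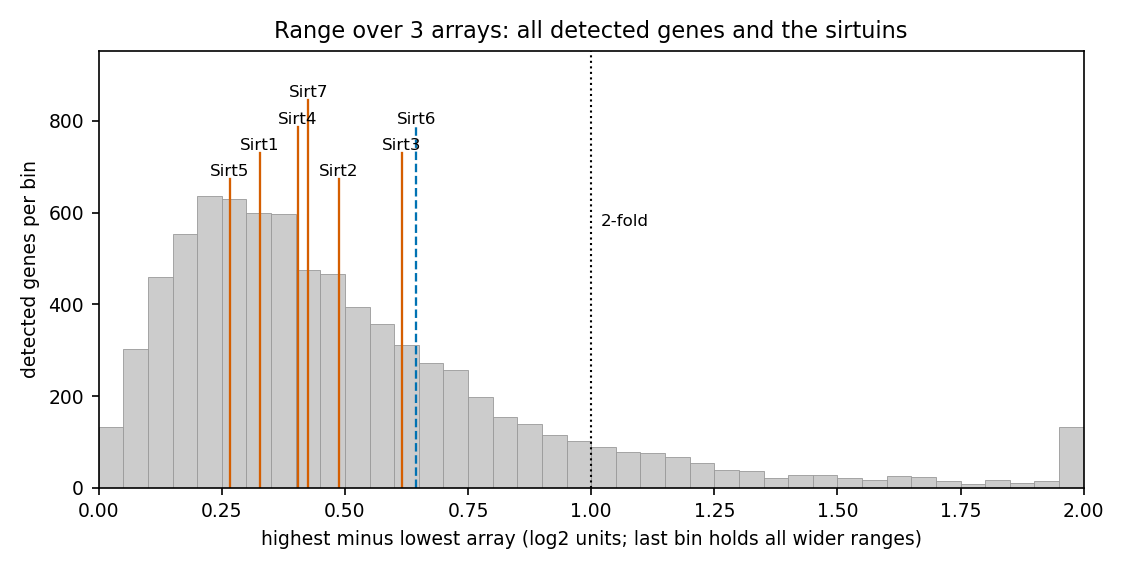
The histogram counts the 7950 detected genes by their range over the 3 arrays (highest minus lowest normalised log2 intensity, bins of equal width, all ranges above the axis in the last bin). Vertical lines mark the sirtuins, dashed for Sirt6, which was not detected on all 3 arrays; each lies left of the dotted line at 2-fold, and the 6 detected members lie on both sides of the median of 0.41.

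Sirt1 differed from the other detected members in its low array. Its level deviated from its own mean by −0.17 on replicate 1, 0.15 on replicate 2 and 0.02 on replicate 3. Sirt3 deviated by 0.40, −0.22 and −0.18, Sirt4 by 0.26, −0.11 and −0.15, and Sirt7 by 0.25, −0.08 and −0.17. Replicate 1 was the highest array for 5 of the 6 detected sirtuins and the lowest for Sirt1. It lay only 0.01 log2 units above replicate 2 for Sirt5, and 0.09 for Sirt2. Among all detected genes, 43.3% were highest on replicate 1 and 43.4% were lowest there. Without normalisation between arrays, the median shift of all detected genes from their own means on replicate 1 was 0.26 log2 units. Sirt1 was then also highest on replicate 1 (0.12 above its mean). Relative to that shift it was again lowest there (−0.14), and the other 5 were again highest. The part of the marker differences of replicate 1, Dcn and Thy1 among them, in these values was not tested.

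The array that carried the spread differed between members. Without replicate 1, the range of Sirt3 fell from 0.62 to 0.04, that of Sirt4 from 0.40 to 0.04, that of Sirt7 from 0.43 to 0.09 and that of Sirt1 from 0.33 to 0.14. The median range of the 6 detected sirtuins was then 0.12 log2 units and that of all detected genes 0.14. For Sirt2 and the brighter Sirt5 probe it was replicate 3 instead. Sirt2 kept a range of 0.40 without replicate 1 and had 0.09 without replicate 3. The brighter Sirt5 probe kept 0.26 without replicate 1 and had 0.01 without replicate 3. The other Sirt5 probe went the other way, with 0.16 without replicate 1 and 0.47 without replicate 3. With 3 arrays of 1 group, a difference between cultures and a difference between arrays cannot be told apart.

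**Figure D3:**
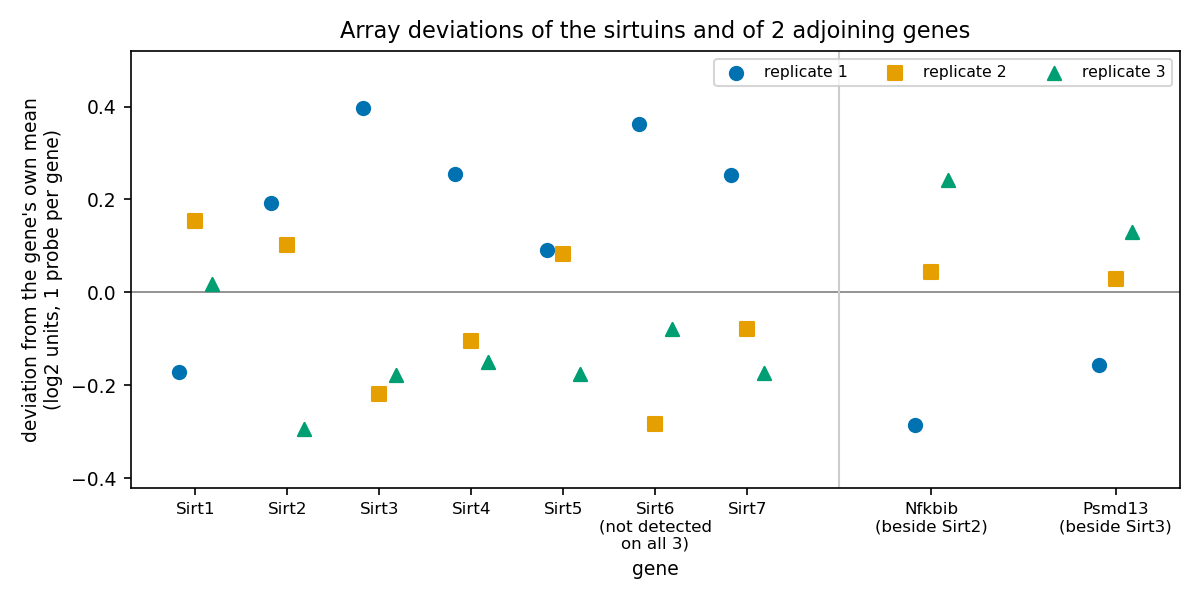
Each symbol is the deviation of a gene's normalised log2 intensity from its own mean on 1 array, in log2 units, for the 7 sirtuins on the left and for the genes that start beside Sirt2 and Sirt3 on the right. Replicate 1 is the top symbol for every sirtuin but Sirt1, where it is the bottom one, and it is the bottom symbol for Nfkbib and Psmd13; without normalisation between arrays it was the highest array for Sirt1 and Psmd13 too.

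Sirt2 and Sirt3 each start within a short distance of a gene on the opposite strand, as the sequences above show. Nfkbib, which encodes an inhibitor of NF-κB, starts 108 bases from Sirt2 and was detected at 5.62, 5.95 and 6.14 on replicates 1, 2 and 3. Nfkbib was lowest on replicate 1 and highest on replicate 3, while Sirt2 was highest on replicate 1 and lowest on replicate 3. On replicate 1 Nfkbib lay below each Sirt6 probe (5.93 to 6.02 there), close to the detection limit. Psmd13, which encodes a proteasome subunit, starts 85 bases from Sirt3 and was detected at 11.15, 11.33 and 11.44. Psmd13 was lowest on the array on which Sirt3 was highest. Without normalisation between arrays Psmd13 was highest on replicate 1 (0.04 above its mean), and relative to the shift of all detected genes it was again lowest there (−0.22). Neither pair moved together over these 3 arrays in the normalised values. Without normalisation between arrays Sirt3 and Psmd13 were both highest on replicate 1 and lowest on replicate 3, before the shift of all detected genes was taken off. In either case 3 arrays are too few for a correlation.

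For Sirt2, Sirt3 and Sirt7, whose ranges were above the median of detected genes, the genes with the nearest deviations over the 3 arrays were found by Euclidean distance. For Sirt2 they were Nck1, Echdc3 and Neu1, at distances of 0.0089, 0.0093 and 0.010 log2 units. For Sirt3 they were Rhobtb1, Mat2b and Gtf2ird2, at 0.0055, 0.0066 and 0.0078. For Sirt7 they were Tfdp2, Hmgxb4 and Ndufaf1, at 0.0030, 0.0051 and 0.0058. Within 0.1 log2 units lay 98 genes for Sirt2, 256 for Sirt3 and 477 for Sirt7 of 7949, so a pattern over 3 arrays is shared by many genes.

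Genes that make NAD+, use it or act on its precursors, regulate SIRT1 or serve as sirtuin substrates were taken from 5 lists of 72 genes in all. Of these, 43 had a named probe and 39 were detected on all 3 arrays, against a background of 82.2% of all named genes. The counts of each list below are to be read against that share. The other 29 had no named probe. Such a gene may be at background, lack a probe, or have only a probe without a gene symbol of its own, and these cases cannot be told apart. Of the probes in the processed table, 2704 had no gene symbol. All 6 named genes of the list of NAD+ synthesis and salvage were detected: Nampt, Naprt, Nmrk1, Afmid, Nadk and Nnmt. Of these, Nadk and Nnmt act on NAD+ or nicotinamide without making NAD+. Nampt, the rate-limiting enzyme of NAD+ salvage from nicotinamide, stood at 6.20, 5.48 and 5.93 on replicates 1, 2 and 3. Naprt, which starts NAD+ synthesis from nicotinic acid, stood at 7.11, 7.40 and 7.02. Nmrk1, a nicotinamide riboside kinase, kept within 0.03 log2 units at 6.60, 6.57 and 6.57. The 3 Nmnat genes, which carry out the last step of salvage, had no named probe.

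**Figure D4:**
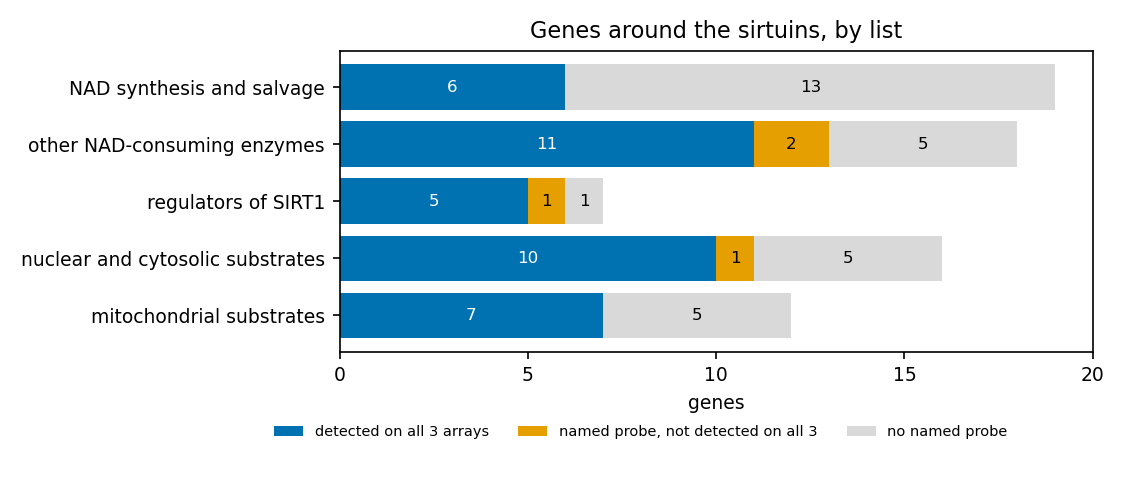
Bars count the genes of the 5 lists around the sirtuins: those detected on all 3 arrays, those with a named probe that were not, and those with no named probe. Detection was complete among named genes of the list of NAD+ synthesis and salvage (6) and of the mitochondrial substrates (7), while 13 genes of the former list had no named probe.

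Other NAD+-consuming enzymes were detected at 11 of 13 named genes. Parp1 and Parp2, the DNA-damage-activated poly(ADP-ribose) polymerases, stood at 10.60 ± 0.11 and 10.24 ± 0.23 (SD, n = 3), and Parp3, another polymerase of DNA repair, at 6.48 ± 0.27 (SD, n = 3). Parp10, Parp12 and Parp14, interferon-inducible ADP-ribosyltransferase genes, were the members of this list that spanned over 2-fold, as 10.1% of all detected genes did. Parp14 stood at 9.75, 7.56 and 9.02 on replicates 1, 2 and 3. Parp12 stood at 8.69, 6.65 and 7.48, and Parp10 at 7.64, 5.85 and 6.77. In each of the 3, replicate 1 was the high array and replicate 2 the low one. Without replicate 1 the range was 1.46 for Parp14, 0.92 for Parp10 and 0.83 for Parp12, so that Parp14 alone still spanned over 2-fold. Without replicate 2 it was 0.74, 0.88 and 1.21, and Parp12 alone did. Parp10 was detected with 1 of its 3 probes, Parp14 with 1 of 2 and Parp12 with its single probe. Parp8 (detection p of 0, 0.0278 and 0.0353) and Parp9 (0.0385, 0.124 and 0.0353) were not detected on all 3 arrays.

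Genes that regulate SIRT1 were detected at 5 of 6. Rps19bp1, which encodes the SIRT1 activator AROS, stood at 7.80 ± 0.15 (SD, n = 3), and Hic1, a transcriptional repressor of Sirt1, at 6.51 ± 0.20 (SD, n = 3). E2f1, a transcription factor reported to induce SIRT1, stood at 8.87 on replicate 1, 9.52 on replicate 2 and 9.60 on replicate 3. Ccar2, which encodes the SIRT1 inhibitor DBC1, was above background on replicate 1 alone (detection p of 0.00107, 0.217 and 0.217).

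Substrate genes were detected at 10 of 11 named nuclear and cytosolic members and at 7 of 7 mitochondrial ones. Among the former, Foxo1 stood at 7.21 ± 0.22, the NF-κB subunit gene Rela at 11.43 ± 0.09 and the hypoxia factor gene Hif1a at 7.46 ± 0.29 (SD, n = 3). Foxo3, another forkhead factor gene, missed the threshold on replicate 3 alone, with a detection p of 0.0150 there and 0 on the other arrays. Among the SIRT3 substrates, Acadl, of fatty acid oxidation, stood at 7.40 ± 0.17, and Sod2, the mitochondrial superoxide dismutase, at 10.84 ± 0.09 (SD, n = 3). Idh2, which makes NADPH in mitochondria, spanned over 2-fold at 9.43, 8.83 and 8.36 on replicates 1, 2 and 3. Mlycd, the malonyl-CoA decarboxylase that SIRT4 deacetylates, also did, at 6.96, 6.28 and 5.92. Both were highest on replicate 1 and lowest on replicate 3, as Sirt2, Sirt4, Sirt5 and Sirt7 were, while Sirt3 was lowest on replicate 2. Among all detected genes, 43.3% were highest on replicate 1 and 30.6% lowest on replicate 3. The share of genes with both was not counted. Neither spanned over 2-fold without replicate 1, with ranges of 0.48 for Idh2 and 0.35 for Mlycd, or without replicate 3, with 0.59 and 0.68. The lists differ in how many members have a probe, so their shares were not set against each other.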

How the data were processed

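Total RNA from 3 cultures of 1 group was read on Illumina BeadArrays. Per the file headers, the deposited unprocessed table gives for each probe an intensity on a linear scale, not normalised, and a detection p-value. The authors' deposited processed table gives log2 intensities of 17754 of the 45281 probes, made with limma per the submitters' processing notes. Its 3 columns hold the same sorted values to within 0.00036, as quantile normalisation leaves them. The bead summary software, its version and the probe filter: not given in the sources used here.

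Unprocessed intensities were passed through neqc of limma 3.58.1 under R 4.3.3, which infers the negative controls from the detection p-values, subtracts background by normexp, adds an offset of 16, quantile-normalises and takes log2. Of the probes in the processed table, 15045 carried 1 gene symbol, 5 several and 2704 none in the platform annotation; 15026 matched RefSeq (GRCm38.p6) by Entrez identifier. The probe with the highest mean stood for a gene. Detection meant a detection p under 0.01 on all 3 arrays. The design has 1 group, so nothing was compared between conditions and no p-value of a difference was computed. The number of arrays (3) limits the precision. Steps were tested on simulated data. Named genes of the 5 pathway lists were the first 3 detected members, every undetected member (up to 5 per list) and every detected member spanning over 2-fold. For each detected sirtuin gene with a range above the median of all detected genes, the 3 genes with the nearest array deviations were also named. The members, the lists and the rules were chosen with earlier results of these data known. Alternatives tried were a detection threshold of 0.05 or of 0.001, 1 array as enough for detection, any or every probe of a gene, neqc without its background or without its quantile step, the authors' processed values, the mean over a gene's probes, no filter on dim probes, and each replicate left out. Python 3.11.15, numpy 2.4.6 and pandas 2.3.3 were used.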

Additional observations from a re-analysis of the deposited data

How the results depend on the processing

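The count of detected sirtuins was 6 or 7 of 7 under each alternative, and 6 to 7 with 1 replicate left out. It was 7 at a detection p under 0.05, with detection on at least 1 array and without replicate 2, when Sirt6 was added. For the pathway lists 35 to 42 of 43 were detected, and 39 to 40 with 1 replicate left out. Over all named genes the share detected ran from 71.8%, with every probe of a gene required, to 96.2%, with 1 array as enough. Those settings gave the 35 and the 42. No sirtuin spanned over 2-fold under any alternative except without normalisation between arrays (2 of 6, when 18.1% of detected genes did). Replicate 1 was the highest array for 5 of 6 detected sirtuins, under settings in which it was so for 43.3% to 50.1% of detected genes. Without normalisation between arrays it was the highest for 6 of 6, when it was so for 71.8% of detected genes. Without replicate 1 no such count exists. Mean levels moved by over 1 SD for 6 of 7 genes with the processed values of the authors or quantile normalisation without background correction, and ranges narrowed there: Sirt6 spanned 0.29 and 0.31 log2 units against 0.65. The mean of both Sirt5 probes gave 6.36 against 6.66. Signal over background limits Sirt6 most. No paired analysis was possible because the labels give 1 group.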
